A study of Mus musculus with 8 samples.

Results

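The nuclear genes of oxidative phosphorylation were taken as the protein-coding rows of the count table whose symbol begins with Ndufa, Ndufb, Ndufc, Ndufs or Ndufv, with Uqcr, with Cox4, Cox5, Cox6, Cox7 or Cox8, or with Atp5, together with Sdha, Sdhb, Sdhc and Sdhd. Ndufaf assembly factors and pseudogene rows were left out. The rule found 86 of the 55414 rows: 38 for complex I, 4 for complex II, 8 for complex III, 18 for complex IV and 18 for complex V. It used no measured value. Of the 86 members, 82 had enough reads for the tests. The 4 others were Cox7b2, Cox8b and Cox8c, with at most 2 counts in any library, and a second identifier of Atp5o that was listed at 0 in all libraries. By prefix the rule also took Ndufa4, whose protein is known as a subunit of complex IV, and Atp5s and Cox7a2l, which are not core subunits.

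The libraries came from cultured cardiac fibroblasts of C57BL/6J mice, the cells that make the collagen matrix of the heart. Every culture was infected at passage 2 with an adenovirus, after 24 h without serum. The virus carried Has2 in 4 cultures and green fluorescent protein (GFP), as control, in the other 4. After 5 h of infection both groups received fresh medium with bFGF and TGFb at 20 ng/mL, and RNA was taken after 48 h of stimulation, so no culture was free of virus or of these growth factors. Has2 encodes a synthase of hyaluronan, a polysaccharide of the extracellular matrix. In the labels the genotype is wild type, whereas the treatment text names mice with a floxed Has2 gene. A Cre virus is named there as well; such cultures are not analysed here. Replicates 1 and 2 of each group were female and replicates 3 and 4 male. Libraries of the same number carry the same preparation identifier, and the identifiers of females and males start with letters of their own, so that sex and the series of preparations cannot be told apart. Hearts were plated at 1 heart per flask, but the labels do not say whether the replicates came from separate animals, and a p-value here reflects no more than how far these libraries spread.

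In oxidative phosphorylation, electrons from NADH enter the inner mitochondrial membrane at complex I and those from succinate at complex II. They pass through ubiquinone, complex III and cytochrome c to complex IV, which reduces oxygen. Complexes I, III and IV pump protons, and the ATP synthase, complex V, makes ATP as the protons flow back. Most subunits are encoded in the nucleus, and the others by mitochondrial DNA.

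Libraries held 46981231 to 55795187 counts, and the members took 0.670% to 1.09% of them. CPM stands for read counts divided by a library's effective (TMM-scaled) size in units of 1e+06 counts. Has2 was at 7.36 to 25.2 CPM in the GFP libraries and at 9533, 8406, 3209 and 4860 CPM in Has2 replicates 1, 2, 3 and 4, so the labels of the groups held and the male Has2 cultures carried less of the transcript than the female ones. The 10 fibroblast markers summed to 20356 to 32583 CPM with the GFP virus and 19665 to 34300 CPM with the Has2 virus. The 10 cardiomyocyte markers summed to at most 9.15 CPM, with Myl7 and Pln at 0 in all 8 libraries and Myh6 at no more than 2 counts. Endothelial, mural and mesothelial markers reached at most 47.9, 10.6 and 7.49 CPM in sum. The 10 macrophage markers summed to 850 to 2300 CPM, so the cultures may not have been fibroblasts alone. A sum in bulk RNA does not show which cells made these transcripts. In bulk RNA, fewer cells of a type and less RNA per cell cannot be told apart.

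Levels of different members were compared per kilobase of coding transcript. Complex V had the highest single member, Atp5b, the catalytic beta subunit, at 501 CPM per kilobase (range over the 8 libraries 372 to 607). It was followed by Cox4i1, the ubiquitous subunit 4 of cytochrome c oxidase, at 435 CPM per kilobase (range over the 8 libraries 249 to 573). Their ranges overlap, but Atp5b was above Cox4i1 within every library. Uqcrh, the hinge protein of complex III, averaged 397 CPM per kilobase (range over the 8 libraries 280.0 to 496) and Ndufa6, an accessory subunit, led complex I with 284 CPM per kilobase (range over the 8 libraries 231 to 361). The median coding transcript of Ndufa6 was 382 bases long and its longest transcript 1141 bases, so its place depends on the length taken. Within complex II, Sdhb, the iron-sulfur subunit, was at 90.6 CPM per kilobase (range over the 8 libraries 56.0 to 121) and Sdha, the flavoprotein that oxidises succinate, at 79.4 CPM per kilobase (range over the 8 libraries 70.6 to 90.3). Their ranges overlap too, and their order changed between libraries. Sdhd and Sdhc, the membrane anchors, averaged 68.1 and 67.6 CPM per kilobase. The median member was at 85.8 CPM per kilobase in complex I, 73.7 in complex II, 139 in complex III, 139 in complex IV and 167 in complex V. The lowest of the tested members were Cox6a2 at 0.844 and Atp5l at 2.75 CPM per kilobase. Atp5l had only 59 to 92 counts per library, and several processed copies of it lie in the genome. How reads that match both were counted is unknown, so its level is uncertain.

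Promoters are shown for 1 member of each complex (Ndufb2, Sdhd, Uqcr11, Cox6a1 and Atp5e) and for Cox7b, which was lower with the Has2 virus in all 4 pairs. Those named first are each among the 2 members of their complex with the smallest p for the male against female difference (blocked fit described below). Sdhd, Uqcr11 and Cox6a1 were no longer called for it once a trend of GC content and length was removed. The sequences are from RefSeq on GRCm38.p6 and run 5′ to 3′ along the gene's strand. Each is the longest stretch outside annotated exons within the 250 bases before the start. Capitals mark matches to the motifs below.
Ndufb2: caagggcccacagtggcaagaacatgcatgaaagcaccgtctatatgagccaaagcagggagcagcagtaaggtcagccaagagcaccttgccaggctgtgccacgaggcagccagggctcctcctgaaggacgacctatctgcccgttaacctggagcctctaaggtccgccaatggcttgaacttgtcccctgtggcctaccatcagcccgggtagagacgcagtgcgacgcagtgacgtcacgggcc
Sdhd: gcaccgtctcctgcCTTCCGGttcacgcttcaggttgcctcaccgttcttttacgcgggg
Uqcr11: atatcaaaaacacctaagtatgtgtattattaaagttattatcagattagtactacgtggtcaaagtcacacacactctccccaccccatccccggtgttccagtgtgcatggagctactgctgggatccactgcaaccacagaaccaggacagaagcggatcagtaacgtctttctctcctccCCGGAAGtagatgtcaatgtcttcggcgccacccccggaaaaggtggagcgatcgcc
Cox6a1: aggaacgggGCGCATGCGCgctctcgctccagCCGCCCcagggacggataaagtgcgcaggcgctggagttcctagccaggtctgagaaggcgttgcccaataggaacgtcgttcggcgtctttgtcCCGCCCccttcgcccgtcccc
Atp5e: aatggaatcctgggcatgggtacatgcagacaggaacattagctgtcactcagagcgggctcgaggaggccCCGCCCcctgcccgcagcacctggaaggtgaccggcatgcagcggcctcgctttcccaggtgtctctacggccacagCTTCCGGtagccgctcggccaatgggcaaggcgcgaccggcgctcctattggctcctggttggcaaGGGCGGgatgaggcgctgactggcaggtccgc
Cox7b: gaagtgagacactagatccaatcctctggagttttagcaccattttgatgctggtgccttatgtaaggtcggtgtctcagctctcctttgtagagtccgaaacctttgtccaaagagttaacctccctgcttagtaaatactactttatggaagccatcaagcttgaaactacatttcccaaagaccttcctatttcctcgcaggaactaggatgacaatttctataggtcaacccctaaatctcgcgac
They lie at chr6:39592315-39592564 (plus strand), chr9:50603850-50603909 (minus strand), chr10:80406831-80407071 (minus strand), chr5:115348982-115349129 (minus strand), chr2:174464106-174464351 (minus strand) and chrX:106015450-106015699 (plus strand).

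Of the 82 members 67 had a promoter window in the RefSeq table, of 250 bases before and 50 after the start. The searched letters, on both strands, were GCGCATGC (the core bound by NRF1), CCGGAAG (ETS factors, which include GABP), AAGATGGC (YY1), GGGCGG (SP1) and TATAAA (the TATA box). They were chosen after the expression values had been seen. GCGCATGC was in a window of 14.9% of the 67 members and of 3.93% of the 17491 protein-coding genes with a window. A palindromic run, as in Cox6a1, gives overlapping matches on both strands, and each gene was counted once. For AAGATGGC the shares were 14.9% and 3.57%, and for CCGGAAG 23.9% and 12.9%. GGGCGG was in 41.8% of the members and 49.2% of all genes, and TATAAA in 7.46% and 14.8%. Neither the Ndufb2 nor the Cox7b stretch held any of the 5 strings. Medians of the male minus female difference (log2, blocked fit described below) were set side by side for members with and without each string. They were 0.61 in the 10 members with GCGCATGC and 0.51 in the 57 without it, 0.63 and 0.51 for AAGATGGC, and 0.59 and 0.50 for CCGGAAG. For GGGCGG the order was the reverse (0.47 and 0.56), and the widest gap was that of TATAAA (0.75 in 5 members and 0.52 in 62). These are descriptions of letters in a window, without a test.

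Across all 4 cultures of each group, no member passed the test for a change with the Has2 virus. By edgeR's quasi-likelihood F-test (Benjamini-Hochberg adjusted p under 0.05) 0 of 82 members passed, where Has2 was the 1 gene called among 15150 (0.0066%). With the replicate number as a block the count was again 0 of 82, beside 0.0066% of all genes. At an unadjusted p under 0.05 there were 3 members without the block, Atp5f1, Cox7b and Ndufs4, all lower, and 8 with it, where all genes gave 388 and 1134. DESeq2 and limma-voom called 0 members. The median log2 fold change of the members was -0.04, with 53 negative and 29 positive, and that of all genes was -0.01. By complex the medians were -0.08, -0.01, -0.03, -0.02 and -0.03 for I to V. Leaving out single libraries or replicate numbers moved the members' median between -0.18 and 0.11, so its sign was that of the libraries included. Without Has2 replicate 1, 18 members had a negative fold change, and without Has2 replicate 3 71 had.

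Within the replicate-number pairs the members moved in opposite directions in the 2 sexes. In the female pairs most members of every complex were lower with the Has2 virus than with the GFP virus, and in the male pairs most were higher. The summed level of all members was 7959, 10863, 10464 and 8294 CPM in GFP replicates 1, 2, 3 and 4. With the Has2 virus it was 6714, 8597, 11058 and 10020 CPM. The lowest and the highest of the 8 sums were both from Has2 cultures, replicates 1 and 3, and the groups overlapped. Has2 over GFP, the sums stood at ratios of 0.844, 0.791, 1.06 and 1.21. Of the 82 members 67 and 80 were lower in pairs 1 and 2, against 50.2% and 52.0% of all genes tested, and 24 and 10 were lower in pairs 3 and 4, against 46.5% and 48.1%. The median log2 ratio of CPM + 0.5 was -0.23, -0.38, 0.11 and 0.30 in the 4 pairs, beside 0.00, -0.01, 0.03 and 0.01 over all genes. With 1 library per virus in a pair these values have no test of their own.

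In the counts as deposited, the direction in each sex was the same in all 5 complexes; with a trend of GC content and length removed, the median in pair 3 was below 0 in complexes I to IV. The summed level of complex I had Has2 over GFP ratios of 0.851, 0.782, 1.05 and 1.22 in pairs 1 to 4. For complex II the ratios were 0.871, 0.875, 1.08 and 1.15, the narrowest range of the 5. Complex III gave 0.846, 0.783, 1.02 and 1.21, complex IV 0.819, 0.774, 1.03 and 1.23, and complex V 0.845, 0.797, 1.09 and 1.19. In the male pairs the ratio was larger in pair 4 than in pair 3 in every complex. Lower in both female pairs and higher in both male pairs were 46 of 82 members (20 of 38 in complex I, 3 of 4 in II, 6 of 8 in III, 6 of 15 in IV and 11 of 17 in V). Over all genes this pattern was seen in 2821 of 15150. The reverse pattern was seen in 0 members and in 2408 genes. The members' changes in pair 1 correlated with those in pair 2 (Pearson r = 0.60, across 82 genes), and those in pair 3 with pair 4 (0.82). Between a female and a male pair r lay between -0.06 and 0.08. Genes of 1 pair share its 2 libraries, so these correlations are a description.

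**Figure D1:**
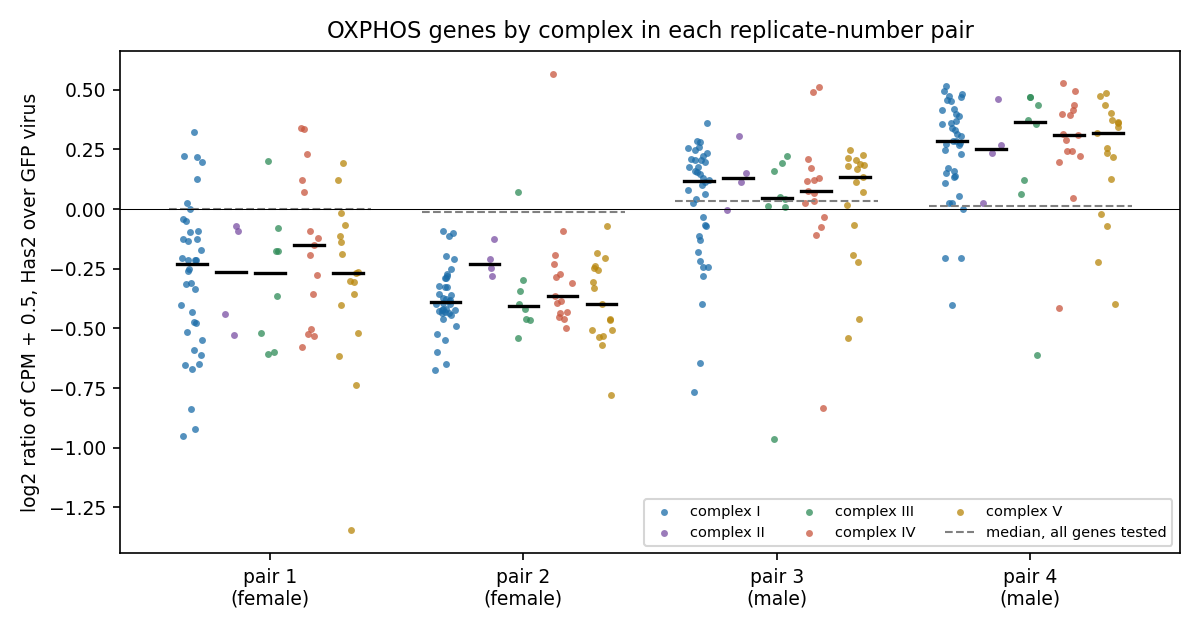
Log2 ratio of CPM + 0.5, Has2 virus over GFP virus, for each of the 82 tested members (points) in each replicate-number pair, coloured by complex; black bars are the complex medians and dashed lines the median over all 15150 genes. The members' median was -0.23 and -0.38 in the female pairs and 0.11 and 0.30 in the male pairs, and -0.16, -0.12, -0.021 and 0.045 once a GC and length trend was removed, which turns the sign in pair 3.

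The difference between the sexes in the response to the virus was tested as an interaction over all genes. Without the block 0 of 82 members and 0% of all genes passed edgeR's test. At an unadjusted p under 0.05 there were 7 members and 2014 genes, and DESeq2 and limma-voom also called 0 members. The median difference, male minus female, was 0.50 for the members and 0.03 for all genes, and it was positive in 75 of 82. In this model the differences between libraries of the same sex, shared by both members of a pair, stay in the error: the median standard error of the difference was 0.31 for the members. With the replicate number as a block it was 0.13. The blocked fit rests on 2 pairs per sex and leaves few degrees of freedom for the error. Its p-values therefore lean on a spread estimated across genes. In that fit 51 members (62.2%) had a higher change in males at an edgeR adjusted p under 0.05, where 11.5% of all genes did. A lower change in males was called for 1 member, Uqcrb, where 18% of all genes were called. The 51 were 23 of 38 members of complex I, 3 of 4 of complex II, 6 of 8 of complex III, 8 of 15 of complex IV and 11 of 17 of complex V. Their differences ran from 0.36 to 1.30. In the same fit the median log2 fold change of the members was -0.30 in females and 0.22 in males. Without replicate number 4 the count fell to 23, and without numbers 1, 2 and 3 it was 59, 46 and 44. In each of these 1 sex is left with a single pair, which is assumed to vary like the others.

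**Figure D2:**
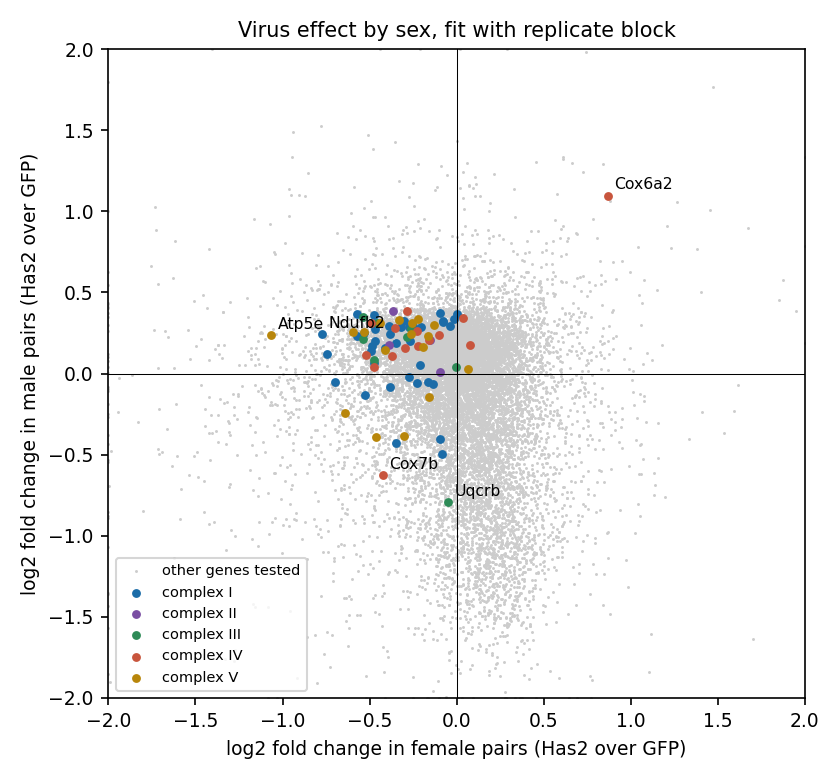
Log2 fold change with the Has2 virus in the female pairs (x axis) against that in the male pairs (y axis), from the edgeR fit with the replicate block, for the members by complex (coloured) and the other genes tested (grey, drawn at the edge where beyond 2). Most members lie left of 0 and above 0 (medians -0.30 and 0.22), with Atp5e farthest to the left among them, and Uqcrb and Cox7b below 0.

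In complex I the members with the smallest p for this difference were Ndufa11 and Ndufb2, both accessory subunits of the membrane arm. Ndufa11 (ENSMUSG00000002379) was at 60.8, 90.2, 88.0 and 66.5 CPM in GFP replicates 1 to 4 and at 38.6, 64.0, 105 and 92.5 CPM in Has2 replicates 1 to 4. It was lower with Has2 in both female pairs and higher in both male pairs, and the 2 groups overlapped. The fitted change was -0.57 in the female pairs and 0.37 in the male pairs, a difference of 0.94 (SE 0.13; edgeR adjusted p = 0.000398). Ndufb2 (ENSMUSG00000002416) was at 25.8, 36.8, 38.7 and 25.8 CPM with GFP and 13.4, 24.1, 44.8 and 31.3 CPM with Has2. The female Has2 cultures were the 2 lowest of the 8, and the highest was a male Has2 culture. Its difference was 1.02 (SE 0.14; edgeR adjusted p = 0.000477). Ndufa11 exons overlap Vmac and those of Ndufb2 overlap Braf on the opposite strand, and the strand setting of the counting is not given in the sources used here. Other members called in the same direction ranged from Ndufa10 at 0.40 (SE 0.12; edgeR adjusted p = 0.0249) to Ndufa2 at 0.87 (SE 0.15; edgeR adjusted p = 0.00154). They included the core iron-sulfur subunits Ndufs7 (0.81) and Ndufs8 (0.63) and the flavoprotein subunit Ndufv1 (0.63), which binds NADH.

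Not all of complex I followed. Ndufs4, an accessory subunit of the NADH-oxidising arm whose loss causes Leigh syndrome, was at 46.1, 66.2, 66.1 and 51.1 CPM with GFP and 38.7, 48.8, 42.1 and 44.3 CPM with Has2. It was lower with Has2 within every pair, although the groups overlapped. Its log2 fold change over all libraries was -0.40 (SE 0.15; edgeR unadjusted p = 0.0275, adjusted p = 1). After removal of a trend of GC content and length, described below, it was -0.17, and the ratio in pair 4 turned to 0.08. Ndufs1, the largest iron-sulfur subunit of that arm, was at 81.6, 83.7, 85.7 and 82.4 CPM with GFP and 76.4, 78.5, 64.9 and 62.3 CPM with Has2. All GFP libraries were above all Has2 libraries, with the larger gaps in the males. The fold change was -0.24 (SE 0.11; edgeR unadjusted p = 0.0646, adjusted p = 1), and -0.15 after that removal. Ndufs1 exons overlap those of Eef1b2 on the opposite strand, which had 27486 to 48760 counts per library.

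Complex II, succinate dehydrogenase, is the 1 complex encoded wholly in the nucleus. Sdhb (ENSMUSG00000009863) stood at 86.9, 117, 112 and 89.9 CPM with GFP and at 63.9, 96.2, 138 and 124 CPM with Has2. The 2 male Has2 libraries were the highest of the 8 and the female Has2 library of replicate 1 the lowest. The difference between the sexes was 0.75 (SE 0.12; edgeR adjusted p = 0.00132). For Sdhd it was 0.56 (SE 0.13; edgeR adjusted p = 0.009) and for Sdhc 0.36 (SE 0.12; edgeR adjusted p = 0.0459). Sdha showed the least: 223, 262, 246 and 205 CPM with GFP and 213, 240.3, 245 and 208 CPM with Has2. Its log2 ratios in the pairs were -0.069, -0.12, -0.0044 and 0.025, and the difference between the sexes was 0.11 (SE 0.12; edgeR adjusted p = 0.547). Over all libraries the fold changes of Sdhd and Sdha were -0.081 (SE 0.18) and -0.046 (SE 0.12).

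In complex III, which passes electrons from ubiquinol to cytochrome c, 6 of 8 members had a higher change in males and 1 a lower one. Uqcrq, a small subunit, was at 105, 169.7, 150.1 and 124 CPM with GFP and 68.6, 123, 175 and 172 CPM with Has2. Its highest libraries were the 2 male Has2 cultures and its lowest a female Has2 culture. The difference was 0.88 (SE 0.13; edgeR adjusted p = 0.000655). Uqcr11, another small subunit, gave 0.77 (SE 0.14; edgeR adjusted p = 0.00209), and Uqcrfs1, the Rieske iron-sulfur protein, 0.56 (SE 0.12; edgeR adjusted p = 0.00532). Uqcrb, a subunit near the ubiquinone site, moved otherwise. It was at 81.4, 95.9, 98.7 and 82.4 CPM with GFP and 93.7, 78.0, 50.3 and 53.7 CPM with Has2. The male Has2 libraries were the 2 lowest, while the female pairs went in opposite directions. Its difference was -0.75 (SE 0.18; edgeR adjusted p = 0.00925), and its log2 fold change over all libraries -0.38 (SE 0.20; edgeR unadjusted p = 0.0944, adjusted p = 1). After removal of a trend of GC content and length the difference was -0.32 (edgeR adjusted p = 0.112), so that the call was lost, and the fold change -0.026. Uqcrc2, a core protein, differed by 0.042 (SE 0.12; edgeR adjusted p = 0.832).

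In complex IV, cytochrome c oxidase, Cox4i1 (ENSMUSG00000031818) was at 271, 404, 374 and 284 CPM with GFP and at 188, 293, 433 and 380.1 CPM with Has2. Its log2 ratios in pairs 1 to 4 were -0.53, -0.46, 0.21 and 0.42, lower in both female and higher in both male pairs. The sex difference was 0.81 (SE 0.13; edgeR adjusted p = 0.00104). Cox6a1, the widespread form of subunit 6a, differed by 0.64 (SE 0.13; edgeR adjusted p = 0.00469). The other members called were Cox5a, Cox6b1, Cox6c, Cox7a2, Cox7c and Cox8a, all higher in males. Cox7b, a small subunit encoded on the X chromosome, was the member with the smallest p for the virus over all libraries. It was at 100.04, 123, 138 and 118 CPM with GFP and 69.1, 99.4, 77.1 and 88.2 CPM with Has2. Every GFP library was above every Has2 library, though by little between GFP replicate 1 and Has2 replicate 2. The log2 fold change was -0.52 (SE 0.15; edgeR unadjusted p = 0.00639, adjusted p = 1), which did not pass. After removal of the GC and length trend it was -0.21. Its sex difference was -0.21 (SE 0.15; edgeR adjusted p = 0.353).

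Among the members of complex V, Atp5e, the epsilon subunit of the central stalk, had the largest sex difference of all 82. Atp5e (ENSMUSG00000016252) was at 76.2, 139, 136 and 88.9 CPM with GFP and 29.7, 81.0, 147 and 114 CPM with Has2. The log2 ratios in the pairs were -1.35, -0.78, 0.11 and 0.36, so the female Has2 cultures were far below their GFP partners and the male ones a little above theirs. The fitted change was -1.06 in the female pairs and 0.24 in the male pairs, and the difference 1.30 (SE 0.18; edgeR adjusted p = 0.000408). Atp5j2, a subunit of the membrane part, differed by 0.85 (SE 0.13; edgeR adjusted p = 0.000677). Atp5b was at 859.7, 1116, 979.5 and 882 CPM with GFP and 714, 934, 1164 and 1038 CPM with Has2. It followed the same order in smaller steps, with a difference of 0.50 (SE 0.13; edgeR adjusted p = 0.013). Atp5f1, the peripheral stalk subunit b, was at 183, 234, 257 and 210.3 CPM with GFP and 148, 189, 176 and 180.4 CPM with Has2. It was lower with Has2 in every pair, and the groups overlapped. The fold change was -0.35 (SE 0.14; edgeR unadjusted p = 0.0294, adjusted p = 1), and it turned to 0.09 after removal of the GC and length trend.

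**Figure D3:**
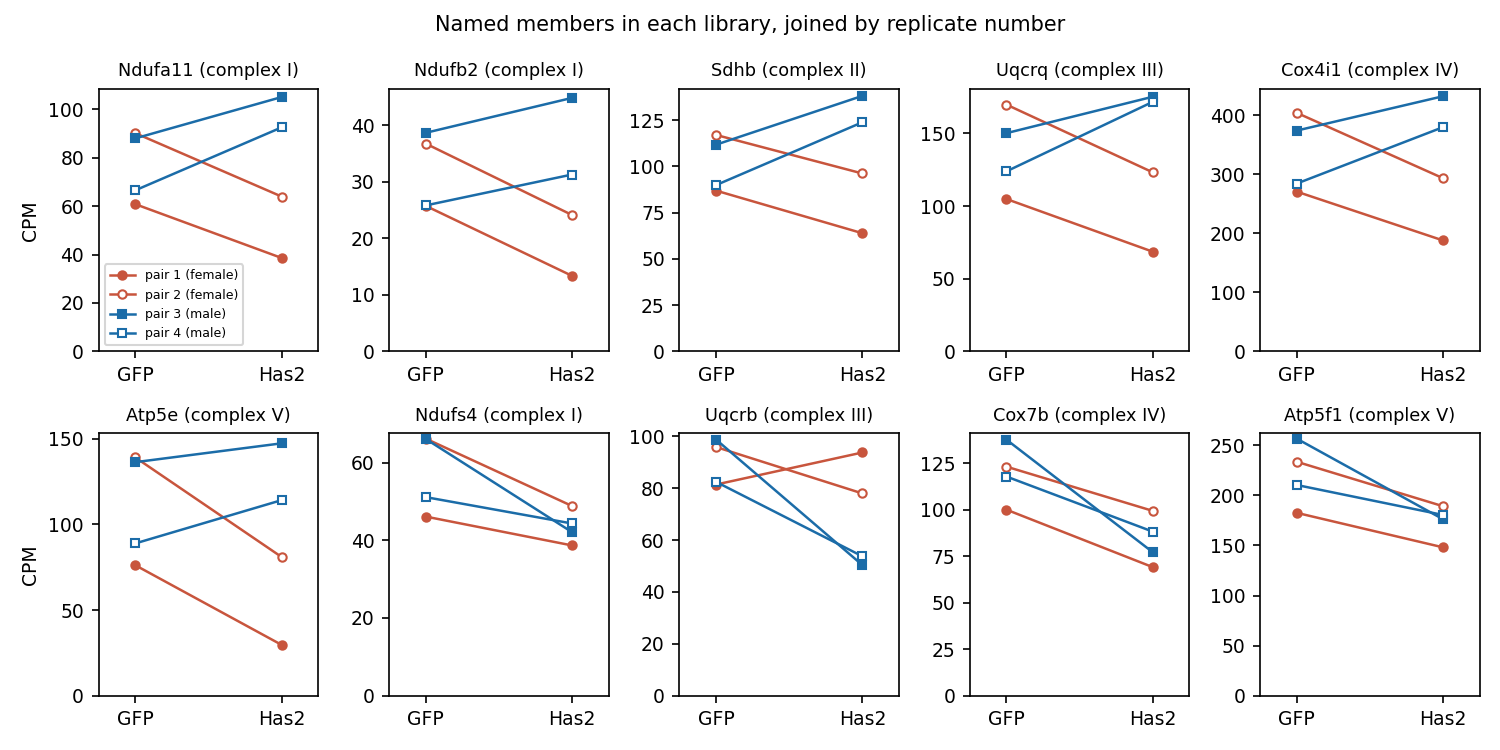
CPM of 10 members in each library, GFP virus on the left and Has2 virus on the right of each panel, with lines joining libraries of the same replicate number (red, female pairs; blue, male pairs). Ndufa11, Ndufb2, Sdhb, Uqcrq, Cox4i1 and Atp5e are lower with Has2 in both red pairs and higher in both blue pairs, while Ndufs4, Cox7b and Atp5f1 are lower in all 4.

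Lower in all 4 pairs were 8 members: Atp5f1, Atp5j, Atp5l, Atp5mpl, Cox7b, Ndufab1, Ndufs1 and Ndufs4. This was seen in 1206 of the 15150 genes. Their log2 fold changes over all libraries ran from -0.52 to -0.15 and none passed the test. Higher in all 4 pairs was 1 member, Cox6a2, the striated muscle form of subunit 6a, at a mean of 0.393 ± 0.255 CPM in the GFP group and 0.754 ± 0.399 CPM in the Has2 group (mean ± SD, n = 4 each). Its fold change was 0.93 (SE 0.58; edgeR unadjusted p = 0.144, adjusted p = 1), and its lowest library had 4 counts. Cox6a2 exons overlap Itgad on the opposite strand, which had 6 to 28 counts per library. Of all genes 1387 were higher in all 4 pairs. The extremes within single pairs were Atp5e in both female pairs (log2 ratios -1.35 and -0.78) and Uqcrb in both male pairs (-0.97 and -0.61).

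The changes in the male pairs followed the GC content of the transcripts. Over all genes the log2 ratio correlated with the GC content of the longest transcript at Spearman rho = 0.68 in pair 3 and 0.66 in pair 4, and at -0.23 and -0.18 in pairs 1 and 2. Over the 82 members rho was 0.05, -0.03, 0.54 and 0.55 in pairs 1 to 4. The members had a median GC content of 50.2% and a median transcript length of 1003 bases, beside 49.7% and 3184 bases over all genes. Transcript length correlated with the ratio over all genes at 0.26, 0.52, -0.10 and -0.37. The 41 members of lower GC content had medians of -0.25, -0.38, 0.03 and 0.23 in the 4 pairs, and the 41 of higher GC content -0.21, -0.38, 0.18 and 0.37. In the female pairs the shift was thus nearly alike at both GC levels in the counts as deposited. With the trend of GC content and length removed, as described below, the levels differed more in pairs 1 and 2. The medians there were -0.23 and -0.18 in the members of lower GC content and -0.093 and -0.11 in those of higher GC content. The 3 members with the smallest p for the virus, Cox7b, Ndufs4 and Atp5f1, had between 37.0% and 43.1% GC. Points share their libraries, so these correlations carry no test.

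A spline trend of GC content and length was then removed from every library, and the blocked interaction was fitted again. A higher change in males was called for 13 members (15.9%), where 4.18% of all genes were called. A lower one was called for 3, Atp5j, Ndufa5 and Ndufa6, where 7.04% of all genes were. Of the 13, 10 had been called before the removal (Atp5e, Atp5g1, Atp5j2, Cox5a, Cox6c, Cox7c, Ndufb2, Ndufb8, Ndufc1 and Uqcrq) and 3 had not (Atp5f1, Ndufa4 and Ndufv2). The other 41 of the 51 lost their call. Atp5e kept a difference of 1.00 (edgeR adjusted p = 0.0126), Atp5j2 0.57 (edgeR adjusted p = 0.0129) and Uqcrq 0.54 (edgeR adjusted p = 0.0207). That of Ndufb2 rose from 1.02 to 1.46 (edgeR adjusted p = 0.00215). Its trend used a longest transcript of 4371 bases, where the median of its coding transcripts was 2413 bases. Among those no longer called were Ndufa11 at 0.37 (edgeR adjusted p = 0.0736), Sdhb at 0.27 (edgeR adjusted p = 0.156), Cox4i1 at 0.22 (edgeR adjusted p = 0.223) and Cox6a1 at 0.00078 (edgeR adjusted p = 0.997). The median difference was 0.18 for the members and -0.08 for all genes, so the members stood 0.26 above all genes, where they had stood 0.47 above them before. The removal shifted the median of all genes in the male pairs, from 0.03 to -0.09 in pair 3 and from 0.01 to -0.08 in pair 4. Relative to it the members' medians were -0.14, -0.11, 0.07 and 0.12 in pairs 1 to 4, and -0.23, -0.37, 0.08 and 0.28 before. In absolute terms pair 3 turned from 0.11 to -0.021. By complex the median in pair 3 became -0.017, -0.0004, -0.052, -0.096 and 0.0028 for I to V, and relative to all genes complex IV stood at -0.0043 there and the other complexes above 0. The trend was not fully suited to the members: their correlation with GC content became 0.26, 0.25, -0.42 and -0.50, the opposite sign in the male pairs.

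**Figure D4:**
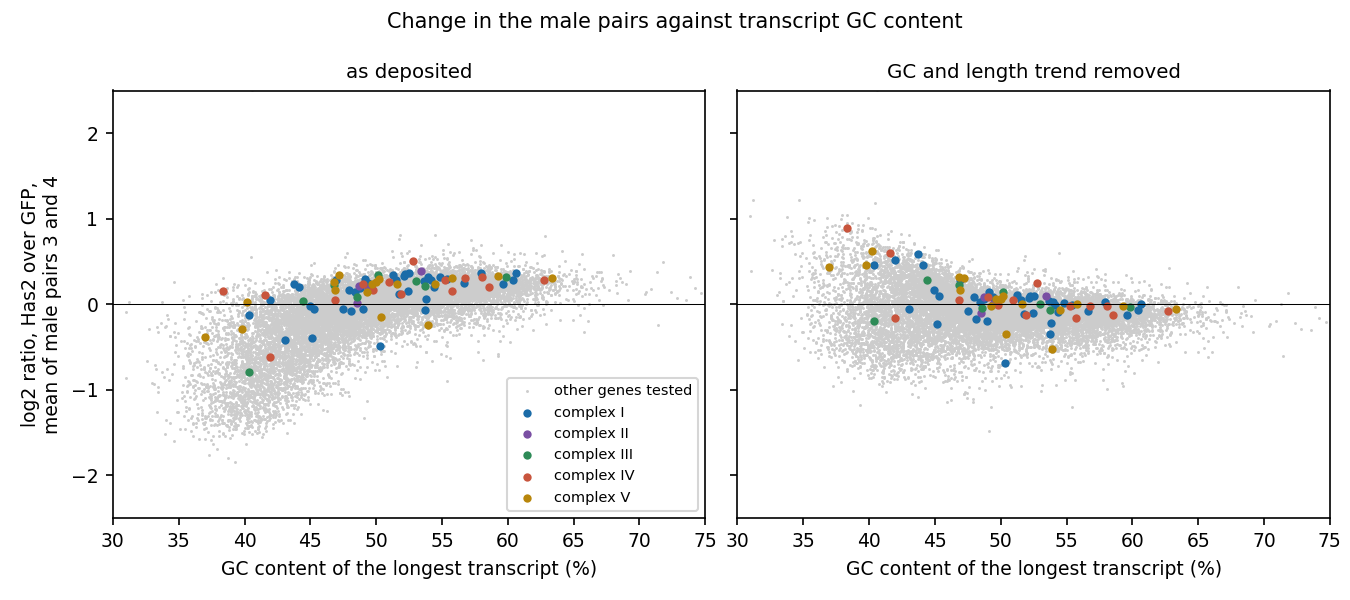
Mean log2 ratio of male pairs 3 and 4, Has2 over GFP, against the GC content of the longest transcript (percent), as deposited on the left and after removal of the GC and length trend on the right; members are coloured by complex and other genes grey. On the left the ratio climbs with GC content (rho 0.68 and 0.66 over all genes, 0.54 and 0.55 over the members), and on the right the members of low GC content lie above the others (rho -0.42 and -0.50).

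Several subunits have a form typical of muscle, lung or low oxygen beside the widespread form. In each family the widespread form dominated in these fibroblasts, with levels compared per kilobase. Cox4i2, the form of subunit 4 known from lung, was at 0.807% to 2.01% of Cox4i1 over the 8 libraries. The muscle forms Cox6a2 and Cox7a1 were at 0.0253% to 0.390% of Cox6a1 and 1.51% to 2.90% of Cox7a2. Cox6b2, known from testis, was at 0.838% to 1.91% of Cox6b1, and Cox8b, with at most 2 counts, at no more than 0.0423% of Cox8a. Cox7a2l averaged 137 CPM per kilobase, close to Cox7a2 at 139. Of the genes for the c subunit of the ATP synthase ring, which encode the same mature protein, Atp5g3 was highest. Atp5g1 was at 7.77% to 10.7% of it and Atp5g2 at 17.1% to 26.3%.

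The exception was Ndufa4l2, a relative of Ndufa4 known as a target of hypoxia signalling. It reached 50.03%, 81.9%, 56.2% and 67.6% of the Ndufa4 level in GFP replicates 1 to 4 and 86.2%, 99.8%, 83.4% and 91.1% in Has2 replicates 1 to 4. All Has2 libraries were above all GFP libraries. It was the only 1 of the 8 isoform ratios examined whose groups did not overlap, and it was singled out after its values were seen. Ndufa4l2 itself was at 97.9, 221, 164 and 140.1 CPM with GFP and 107, 204, 199 and 192 CPM with Has2, and Ndufa4 at 96.4, 133, 143 and 102 and 61.1, 101, 118 and 104 CPM. The log2 fold changes over all libraries were 0.17 (SE 0.27; edgeR unadjusted p = 0.536, adjusted p = 1) and -0.31 (SE 0.21; edgeR unadjusted p = 0.184, adjusted p = 1). In the pairs the log2 change of the ratio was 0.78, 0.29, 0.57 and 0.43. After removal of that trend it was 0.95, 0.38, -0.44 and -0.47, so its direction in the male pairs rests on that processing. The exons of Ndufa4l2 overlap Shmt2 on the opposite strand, which had 4708 to 8568 counts per library.

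**Figure D5:**
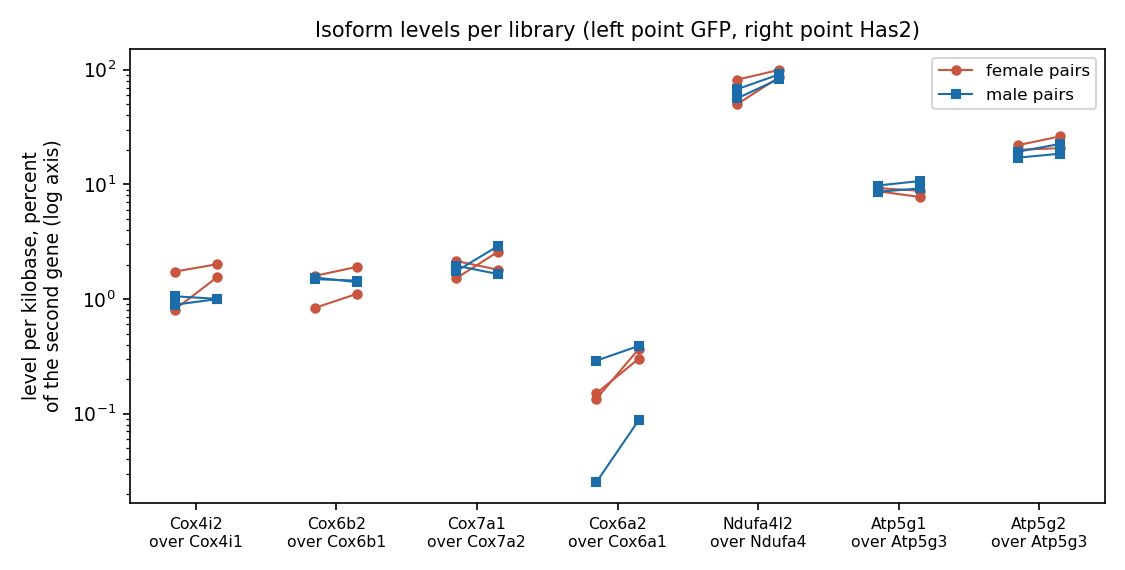
Level per kilobase of the second form of a subunit as a percent of the main form (log axis), for 7 isoform pairs, with GFP on the left and Has2 on the right of each joined pair of points (red circles, female; blue squares, male). Ndufa4l2 stands at 50.03% to 81.9% of Ndufa4 with GFP and 83.4% to 99.8% with Has2, while the Cox isoforms reach at most 2.90% and the Atp5g genes at most 26.3%.

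Other genes of the pathway were read from the same blocked interaction, in which 11.5% of all genes had a higher and 18% a lower change in males. Of 78 mitochondrial ribosomal proteins, 40 (51.3%) had a higher and 3 (3.85%) a lower change, with a median difference of 0.40, led by Mrpl28 by 0.89 (edgeR adjusted p = 0.000504) and Mrps16 by 0.82 (edgeR adjusted p = 0.00097). Of 47 assembly factors 12 (25.5%) were higher and 4 (8.51%) lower (median 0.26), with Uqcc2 by 0.80 (edgeR adjusted p = 0.000675) and Coa3 by 0.64 (edgeR adjusted p = 0.00343) at the smallest p. The 13 coenzyme Q genes gave 6 (46.2%) higher and 1 (7.69%) lower (median 0.46), with Coq6 by 0.67 (edgeR adjusted p = 0.0058) and Coq10b by -0.51 (edgeR adjusted p = 0.00858). Cyc1, Cycs, Etfa, Etfb, Etfdh, Usmg5 and Atpif1 carry electrons, belong to the complexes or regulate them, but lie outside the prefixes. These genes gave 3 of 7 (42.9%) higher (median 0.17), with Etfb by 0.72 (edgeR adjusted p = 0.00348) and Cyc1 by 0.55 (edgeR adjusted p = 0.00565). In the citrate cycle 3 of 14 (21.4%) were higher and 2 (14.3%) lower (median 0.18), beside the 11.5% and 18% of all genes, with Sucla2 by -1.04 (edgeR adjusted p = 0.0002) and Dld by -0.96 (edgeR adjusted p = 0.000275). Regulators of mitochondrial gene expression had 1 of 16 (6.25%) higher and 4 (25%) lower (median -0.26), near the shares of all genes, with Gabpa by -1.20 (edgeR adjusted p = 6.98e-05) and Tfb2m by -0.95 (edgeR adjusted p = 0.00195). Cytosolic ribosomal proteins, whose transcripts are also short, gave 55 of 83 (66.3%) higher and 0 lower (median 0.60), with Rps10 by 1.10 (edgeR adjusted p = 9.19e-05) and Rpl36 by 1.10 (edgeR adjusted p = 0.000321). With the trend removed, where 4.18% of all genes were higher and 7.04% lower, the counts, higher and lower, were 17 and 0 for the mitochondrial ribosome, 6 and 0 for assembly factors and 22 and 0 for cytosolic ribosomal proteins. They were 0 and 0 for coenzyme Q, 2 and 0 for the electron carriers, 1 and 2 for the citrate cycle and 1 and 1 for the regulators.

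In the counts as deposited, the subunits encoded by mitochondrial DNA differed in the direction opposite to the nuclear ones, and in the male pairs that direction turned with the trend removed. The 13 genes summed to 9512, 6763, 6385 and 8406 CPM in GFP replicates 1 to 4 and to 18156, 9200, 3990 and 5570 CPM in Has2 replicates 1 to 4. Both female Has2 cultures were above their GFP partners and both male ones below. In the blocked interaction 6 of 7 tested genes had a lower change in males (median -1.31), among them mt-Co1 by -1.23 (edgeR adjusted p = 0.00011) and mt-Nd5 by -1.39 (edgeR adjusted p = 0.000313), where 18% of all genes did. After the trend removal 3 of 7 did, beside 7.04% of all genes. The medians of the 7 genes were 1.16, 0.42, -0.73 and -0.44 in pairs 1 to 4 as deposited and 1.11, 0.61, 0.20 and 0.31 with the trend removed. Of the 13, 5 were listed at 0 in all libraries and mt-Atp6 had at most 2 counts, so the sum rests on 7 genes.

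The macrophage markers differed between the viruses in the same direction as the members. They summed to 2177, 900 and 1578 CPM in GFP replicates 1, 2 and 3 and 1970 in replicate 4, and to 2059, 850, 1785 and 2300 CPM with Has2. They were thus slightly lower in the female and higher in the male pairs. In the blocked interaction 5 of 9 tested macrophage markers had a higher and 1 a lower change in males, beside 11.5% and 18% of all genes. With the trend removed the counts were 1 and 1, beside 4.18% and 7.04%. Of the 10 fibroblast markers 0 were higher and 4 (40%) lower in that interaction, and 0 and 2 with the trend removed. The 7 endothelial, 5 mural, 4 mesothelial and 2 cardiomyocyte markers that were tested gave 0 in either direction, at the low levels given above. The part of these cells, of the lower Has2 level in the male Has2 cultures and of the preparation series in the members' pattern was not tested.

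The counting leaves some members uncertain. Exons of 30 members overlap those of another annotated gene, 27 of them on the opposite strand and 5 on the same strand, and reads of such pairs cannot be divided without the strand setting. Beside those already named, Cox4i1 overlaps Emc8, Atp5f1 overlaps Wdr77 and Atp5j overlaps Gabpa. Some members, such as Ndufb4 with 228 to 490 counts and Atp5l, have processed copies, and it is unknown how reads that match both were counted. The copies named after them took few counts. Ndufb4c, Atp5l-ps1, Atp5l-ps2 and Atp5l2-ps had at most 5, 3, 1 and 7 counts in any library. Copies under other names were not looked at.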

How the data were processed

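Poly(A) RNA of 8 cultures, 4 per virus, was sequenced from stranded libraries, as the labels' protocols state. The authors deposited 1 table of raw counts per Ensembl gene, which names no total or unassigned lines. Per the submitters' processing notes, FastQC 0.10.1 and HTSeq 0.10.0 were used and the build was mm39 (GRCm39). The aligner, annotation release and strand setting were not given in the sources used here, so it is unknown how reads of overlapping or near-identical genes were divided.

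Symbols came from GENCODE M21, an annotation of the older GRCm38 build, by Ensembl identifier: 52133 of 55414 rows matched and 3281 did not. Each gene's longest M21 transcript gave its GC content and length (99.82% of genes tested) and levels per kilobase used the median length of its coding transcripts. Promoters were matched by symbol in a RefSeq table on GRCm38.p6, for 67 of 82 members. No coordinates of the deposited build are printed.

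Groups, sex and replicate numbers came from the labels. Counts were fitted with edgeR 4.0.16 in R 4.3.3 (TMM scaling, default expression filter, quasi-likelihood F-test, Benjamini-Hochberg adjustment over all 15150 genes, adjusted p under 0.05), first for the virus alone and then for the interaction of sex and virus. The replicate number as a block was added in a further fit. The numbers pair the libraries in that same-numbered libraries share a preparation identifier. The correlation of their deviations from the means of their virus groups was 0.576, 0.622, 0.527 and 0.437 for numbers 1 to 4. Those means do not separate the sexes, and libraries of different numbers were not compared. The values thus cannot tell a shared number from a shared sex or series of preparations. Ratios within pairs used CPM with a pseudocount of 0.5. The trend of GC content and log2 length was removed with natural splines of 5 degrees of freedom each. Any 2 libraries of a group differed by more than sampling noise, with a chi-square of 42.3 to 337 per degree of freedom. Over all genes the log2 fold change had a median standard error of 0.227, and 0.144 with the block. For the interaction it was 0.345, and 0.16 with the block.

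Other settings tried were RLE scaling, library totals, Has2 counts left out, other expression filters, sex as a covariate, DESeq2 1.42.0, limma-voom (limma 3.58.1) and leaving out each library or replicate number. The fits were tried on simulated counts. Named were, per complex, the 2 members with the smallest p for the virus and for the blocked interaction, the highest member per kilobase, all isoform families and Sdh genes, any member against the pattern of the rest, and the 2 genes with the smallest p of each other list. Genes outside this rule serve as examples. Members, lists and motifs were chosen with earlier results of these data known.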

Additional observations from a re-analysis of the deposited data

Results flagged for a closer look

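The change with the Has2 virus differed between the female and the male pairs. Every member median of the difference, male minus female, was above 0 in the fit without the block: 0.50 over all members, 0.53 for complex I, 0.45 for complex II, 0.54 for complex III, 0.46 for complex IV and 0.50 for complex V. For these medians the difference itself was not tested. For the named members the difference was tested in edgeR's interaction with the replicate block. It was 0.94 for Ndufa11, 1.02 for Ndufb2, 0.75 for Sdhb, 0.56 for Sdhd, 0.88 for Uqcrq, 0.77 for Uqcr11, 0.81 for Cox4i1, 0.64 for Cox6a1, 1.30 for Atp5e and 0.85 for Atp5j2. Sex and the series of preparations cannot be told apart.

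A single library stood apart from the others of its group in 2 of 72 groups of 4 that were examined over 36 genes; chance alone gives about 1 in 20. Cox7a1 was at 2.17 CPM in Has2 replicate 3, above the other 3 Has2 libraries. Ndufa4l2 was at 107 CPM in Has2 replicate 1, below the other 3.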

How the results depend on the processing

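The count of 0 members called for the virus held under every alternative run. Over all genes the calls were 1, and 7 with DESeq2, 61 with DESeq2 and the replicate block, 0 with Has2 counts left out and 2 after removal of the GC and length trend in the fit with the replicate block. Atp5f1 turned to 0.090 with that trend removed and to 0.042 with the replicate block added. When single libraries or numbers were left out, the virus effect ran from -0.20 to 0.087 for Sdhd, from -0.085 to 0.015 for Sdha and from -0.28 to 0.012 for Uqcrfs1. Their signs turned without GFP replicate 2 (Sdha), Has2 replicate 1 (all 3) or number 1 (Sdhd).

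For the sex difference, members called higher and lower in males were 0 and 0, but 51 and 1 with the replicate block, 52 and 1 with limma-voom and the replicate block, and 13 and 3 with the trend removed and the replicate block. Over all genes the counts were 0 and 0, then 1748 and 2722, 1747 and 2712, and 634 and 1066, and DESeq2 without the block gave 22 and 653. Blocked fits that left out numbers 1, 2, 3 and 4 in turn, chosen after seeing the data, called 59, 46, 44 and 23 members higher and 1, 2, 0 and 2 lower. Over all genes they called 2199, 1976, 769 and 499 higher and 2773, 2864, 1889 and 1854 lower. Unblocked fits called 4 genes higher without GFP replicate 2 and 7 without number 2. The members' median difference was 0.18 with the trend removed, without and with the block, and 0.25 to 0.71 with libraries left out. With the trend removed, the pair medians moved to -0.12 in pair 2, -0.021 in pair 3 and 0.045 in pair 4. A pseudocount of 2 CPM, also chosen after seeing the data, turned no pair median. The cause of these shifts was not tested. For the virus the block left the count of members called at 0. Over all genes it raised the virus calls from 7 to 61 with DESeq2 and from 1 to 2 with the trend removed.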
